A study of Mus musculus with 18 samples.

Results

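The transcripts described here encode 10 secreted or membrane-bound signals that draw in or sustain immune cells: the chemokines Ccl2, Cxcl1, Cxcl10, Cxcl12, Cxcl16 and Cx3cl1, the macrophage growth factors Csf1 and Il34, and the cytokines Il33 and Il6. They were chosen by symbol, and all 10 were among the 21859 genes of the count table. Of these, 9 passed the filter on low counts, which kept 15944 genes, and Il6 did not. RNA came from mouse RPE (retinal pigment epithelium), the pigmented sheet that nourishes the photoreceptors, and 18 bulk libraries were sequenced. The groups were Young (n = 7), Old (n = 4), Old-Control (n = 3, old mice given AAV2-tTA) and Old-OSK (n = 4, old mice given AAV2-tTA;TRE-OSK). The tTA protein is a tetracycline-controlled activator of TRE promoters, and OSK stands for the reprogramming factors Oct4 (gene Pou5f1), Sox2 and Klf4. Strain, sex, ages, vector doses, the time after injection and the promoter that drives tTA are not given in the sources used here. No source used here says whether a library is 1 mouse or a pool, so the p-values measure the spread between these libraries.

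In the outer retina, chemokines and growth factors made by resident cells set how many macrophages and microglia settle, survive and patrol near the RPE. CSF1 and IL-34 both signal through the receptor CSF1R, which tissue macrophages need to survive. Chemokines act through G-protein-coupled receptors: CCL2 through CCR2 on monocytes, CX3CL1 (fractalkine) through CX3CR1 on microglia, CXCL16 through CXCR6, CXCL12 through CXCR4, CXCL10 through CXCR3 and CXCL1 through CXCR2.

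With age, Cx3cl1, Cxcl16, Cxcl12 and Ccl2 rose, and no member fell. The 4 calls were not equally firm: with 1 library left out, Cx3cl1 was called in 11 of 11 fits, Cxcl16 and Cxcl12 in 10 and Ccl2 in 4, and among libraries without M only Cx3cl1 was called. Cx3cl1 was 2.22-fold higher in Old than in Young, Cxcl16 2.88-fold, Cxcl12 1.69-fold and Ccl2 6.83-fold from a level near the detection limit. After the OSK vector no member passed the threshold against Old-Control, but the 4 Old-OSK libraries lay above the 3 Old-Control libraries for Il34 (3.19-fold) and Cx3cl1 (1.36-fold). The Il34 result depended on the fit. Il33 and Il34 moved together from library to library within the groups.

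Values are CPM, a gene's share of its library's counts, after TMM, a correction for differences in composition between libraries. Fold changes are those of edgeR's quasi-likelihood fit, with p-values adjusted by the Benjamini-Hochberg method over 15944 genes, and "called" means an adjusted p under 0.05. Library totals ran from 18104828 to 32348136 counts, so that 1 count was worth 0.0299 to 0.0579 CPM. Of the vector's factors, Pou5f1 was at 50.1 to 97.4 CPM in Old-OSK and 0.338 to 1.06 CPM in Old-Control, and Sox2 at 70 to 115 against 2.8 to 15.9 CPM. Klf4 was at 155 to 432 CPM in Old-OSK and 24.2 to 33.6 CPM in Old-Control, but at 11.7 to 216 CPM in Old, which overlaps with Old-OSK. All 8 RPE markers were present, with summed levels of 38700 to 64300 CPM in Young, 26500 to 46500 in Old, 19800 to 61700 in Old-Control and 14800 to 29400 in Old-OSK. On the first principal component (46.5% of the variance), Old replicate 4 (score 73.2) and Old-Control replicate 2 (61.8) scored as high as Old-OSK libraries did (45.7 to 96). The names of 6 libraries hold a letter M of unexplained meaning: replicates 5, 6 and 7 of Young, 2 and 3 of Old-Control and 4 of Old-OSK. These 6 had 4040 to 5493 counts on Y-linked genes, which only males carry, against at most 93 in the other 12. No Old library is among the 6, so Old against Young sets libraries with few Y-linked counts against a Young group in which some have many.

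RefSeq (GRCm38.p6) promoter windows were at hand for 7 of the 10 members, and not for Ccl2, Cxcl16 and Il34. The windows were searched on both strands for 3 motifs of inflammatory transcription in the 250 bases before the start: the kappaB consensus bound by NF-kappaB, the core of the interferon-stimulated response element (GAAA, 2 bases of any kind, GAAA), and the AP-1 motif TGANTCA. The kappaB consensus was in the windows of Csf1, Cxcl1, Cxcl10 and Il6 and in 7.25% of all 32851 windows, the interferon element in Cxcl10 and in 2.98%, and AP-1 in Cxcl10 and Il6 and in 6.75%. The stretches below show a pair of members that rose with age, without a match, and a pair with matches that were not called. Capitals mark the matched motifs. The search covered all 250 bases, but each printed stretch ends before its first base within an annotated exon. Cx3cl1 (79 bases shown) and Cxcl1 (246 bases) thus lack the bases nearest the start. Cxcl12 is read at chr6:117168285-117168534 on the plus strand, Cx3cl1 at chr8:94771930-94772008 (plus), Cxcl10 at chr5:92348890-92349139 (minus) and Cxcl1 at chr5:90890995-90891240 (plus).
Cxcl12: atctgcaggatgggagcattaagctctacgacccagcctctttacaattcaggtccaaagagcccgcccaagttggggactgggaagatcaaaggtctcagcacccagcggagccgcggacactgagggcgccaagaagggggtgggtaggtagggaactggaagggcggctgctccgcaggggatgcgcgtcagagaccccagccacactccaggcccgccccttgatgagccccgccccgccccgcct
Cx3cl1: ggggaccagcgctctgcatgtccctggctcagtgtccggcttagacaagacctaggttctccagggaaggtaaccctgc
Cxcl10: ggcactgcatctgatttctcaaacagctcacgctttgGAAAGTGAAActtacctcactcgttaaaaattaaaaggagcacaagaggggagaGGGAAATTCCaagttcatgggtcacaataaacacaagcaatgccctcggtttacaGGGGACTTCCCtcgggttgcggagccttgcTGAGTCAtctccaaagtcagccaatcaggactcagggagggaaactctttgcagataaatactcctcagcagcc
Cxcl1: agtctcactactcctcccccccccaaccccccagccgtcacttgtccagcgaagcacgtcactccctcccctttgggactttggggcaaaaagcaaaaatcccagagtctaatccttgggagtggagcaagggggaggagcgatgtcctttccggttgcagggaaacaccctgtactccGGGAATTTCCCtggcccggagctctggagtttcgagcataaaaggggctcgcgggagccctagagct
In Cxcl10 the interferon element lies at bases -213 to -204 counted from the start, and kappaB matches lie at -159 to -150 and, overlapping each other, between -104 and -94. AP-1 matches both strands at -74 to -68. In Cxcl1 kappaB matches of both strands overlap at -71 to -61. Of the 4 members called with age, only Cxcl12 and Cx3cl1 could be read, and the absence of these letters says nothing of what binds there.

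**Figure D1:**
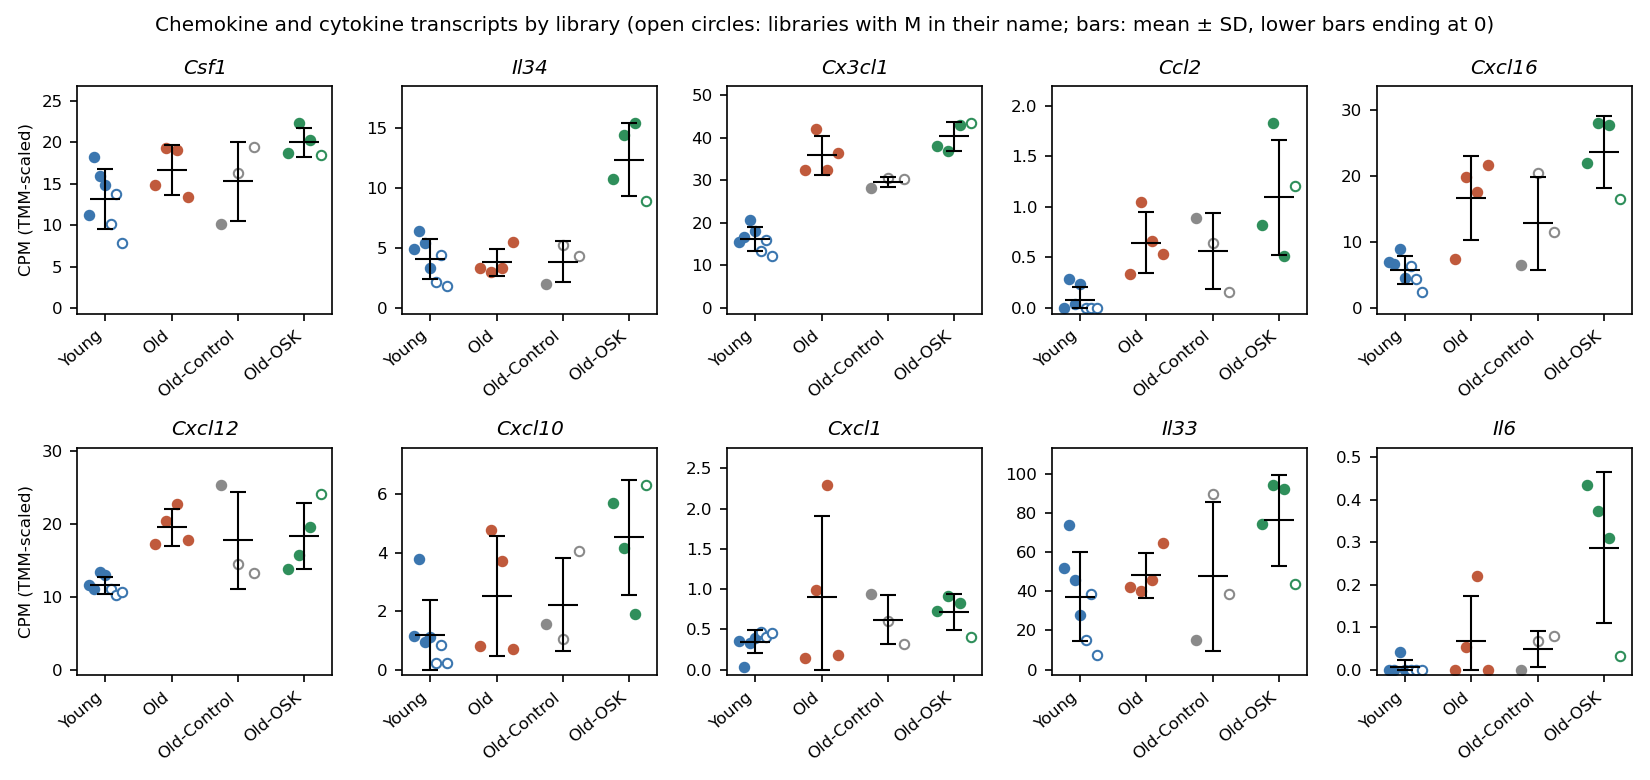
Level of each of the 10 transcripts by library in TMM-scaled CPM (y axis, linear, a scale of its own per panel) in the 4 groups (x axis). Each circle is 1 library, open where its name holds M, and bars are mean ± SD; the Old libraries of Cx3cl1 (32.5 to 42.2 CPM) lie above all Young libraries (12.3 to 20.8 CPM), and the Old-OSK libraries of Il34 (8.9 to 15.4 CPM) lie above all others.

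Per kilobase of exon (GENCODE M21 merged exons), the members spanned a wide range of levels in Young RPE. Il33 was at 12.9 CPM per kb, Cx3cl1 at 4.1, Csf1 at 2.48, Il34 at 2.08, Cxcl16 at 1.91, Cxcl12 at 1.42 and Cxcl10 at 0.525. The other members were scarce, with Cxcl1 at 0.185 CPM per kb, Ccl2 at 0.0712 and Il6 at 0.0024. In Old-OSK the 4 highest were Il33 (26.5 CPM per kb), Cx3cl1 (10.3), Cxcl16 (7.83) and Il34 (6.31).

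Csf1 (chr3:107741048-107760469, minus strand, GRCm38) encodes the macrophage colony-stimulating factor. It was at 7.87 to 18.2 CPM in Young (median 13.8), and at 14.8, 19.3, 19 and 13.4 CPM in Old replicates 1 to 4. Old-Control libraries had 10.1, 16.3 and 19.4 CPM, and Old-OSK libraries 18.7, 22.3, 20.3 and 18.5 CPM. All 4 groups overlapped with at least 1 other, and the Old-OSK libraries were close together (19.97 ± 1.76 CPM, SD, n = 4), with Old-Control replicate 3 among them. The log2 fold change was 0.34 (SE 0.207, adjusted p = 0.285) for Old against Young and 0.39 (SE 0.256, adjusted p = 0.361) for Old-OSK against Old-Control.

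Il34 (chr8:110741829-110805924, minus strand) encodes the other ligand of CSF1R, known in other tissues as a product of neurons and keratinocytes that sustains microglia and Langerhans cells. Young libraries had 1.86 to 6.39 CPM (median 4.4), and Old libraries 3.35, 3.03, 3.34 and 5.47 CPM. Old-Control libraries had 1.99, 5.28 and 4.33 CPM, and Old-OSK libraries 10.7, 14.4, 15.4 and 8.9 CPM. The lowest Old-OSK library was above the highest of the other 14, while Young, Old and Old-Control overlapped. Against Young, Old stood at -0.10 (log2 fold change, SE 0.334, adjusted p = 0.873), and against Old-Control, Old-OSK stood at 1.67 (SE 0.422, adjusted p = 0.0643). With same-numbered libraries paired as a block, a fit without the unpaired Old-OSK replicate 4, the latter was 1.89 and called (adjusted p = 0.0471). The same libraries without the block gave 1.80 (adjusted p = 0.0469), and DESeq2 also called it (1.68, adjusted p = 0.00355). Over the fits that left out 1 library, the adjusted p ran from 0.0174 (without Old-Control replicate 2; 0.0271 without Old-OSK replicate 4) to 0.332 (without Old-Control replicate 1, log2 fold change 1.36). With M as a covariate it was 1.42 (adjusted p = 0.164), and the direction was the same on either side of that split: without M, 1.99 CPM in Old-Control against 10.7, 14.4 and 15.4 CPM in Old-OSK, and with M, 5.28 and 4.33 against 8.9 CPM. RPE markers were lower in Old-OSK than in 2 of the 3 Old-Control libraries (see the sums above), and their part in the Il34 result was not tested. In bulk RNA, fewer cells of a type and less RNA per cell cannot be told apart. Exons of Il34 share 22 and 75 bases with the antisense genes Gm15894 and Gm15895, and no source used here says that strand was used in counting.

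Cx3cl1 (chr8:94772009-94782427, plus strand) encodes fractalkine, a chemokine held on the cell surface by a mucin stalk and shed by the proteases ADAM10 and ADAM17. Young libraries had 12.3 to 20.8 CPM (median 16), and Old libraries 32.5, 42.2, 32.5 and 36.4 CPM. Old-Control libraries had 28.3, 30.5 and 30.3 CPM, and Old-OSK libraries 38, 36.9, 43 and 43.5 CPM. Each of the 11 libraries from old mice was above each of the 7 Young libraries. The log2 fold change with age was 1.15 (SE 0.12, adjusted p = 3.68e-05), and it was called in all 11 fits without 1 library (1.07 to 1.23), with M as a covariate (1.10, adjusted p = 0.000232) and among libraries without M (1.02, adjusted p = 0.000527). Old-OSK lay above Old-Control without overlap (0.44, SE 0.15, adjusted p = 0.0994; DESeq2 0.45, adjusted p = 0.039), and Old-Control lay below Old without overlap (-0.27, SE 0.15, adjusted p = 0.9). These latter comparisons share the Old-Control libraries, and neither passed edgeR's threshold.

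Ccl2 (chr11:82035571-82037453, plus strand) encodes the main chemoattractant of monocytes. Its counts in Young were 0 in 4 of 7 libraries and at most 9 (0.289 CPM) in the others. A count of 0 allows up to 0.0972 CPM in Young replicate 1 and up to 0.174, 0.15 and 0.169 CPM in replicates 5, 6 and 7, which carry M. Old libraries had 0.335, 1.05, 0.662 and 0.538 CPM, from 7 to 21 counts, all above Young. Old-Control had 0.891, 0.643 and 0.159 CPM, and Old-OSK 0.823, 1.83, 0.515 and 1.21 CPM, with overlap. The fitted log2 fold change with age was 2.77 (SE 0.793, adjusted p = 0.0397). It ran from 2.46 (without Old replicate 2) to 3.54 (without Young replicate 2) with 1 library left out. That for Old-OSK against Old-Control was 0.96 (SE 0.888, adjusted p = 0.543). The call with age held in 4 of 11 fits without 1 library (adjusted p between 0.0226 and 0.103, of which the latter is without Old replicate 4). Adding M as a covariate gave 2.54 (adjusted p = 0.0821), and libraries without M gave 2.13 (adjusted p = 0.211).

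Cxcl16 (chr11:70453983-70459984, minus strand) encodes a membrane-bound chemokine that also acts as a scavenger receptor for oxidised lipoprotein. Young libraries had 2.47 to 8.97 CPM (median 6.42), and Old libraries 7.52, 19.9, 17.6 and 21.7 CPM. Old-Control libraries had 6.49, 20.5 and 11.6 CPM, and Old-OSK libraries 22.1, 28.1, 27.8 and 16.6 CPM. Old replicate 1 lay among the Young libraries, and the other 3 lay above them. With age the log2 fold change was 1.52 (SE 0.336, adjusted p = 0.0132), called in 10 of 11 fits without 1 library and lost without Old replicate 4 (1.37, adjusted p = 0.0626). With M as a covariate it was 1.43 (adjusted p = 0.0416), and among libraries without M 1.30 (adjusted p = 0.0949). Against Old-Control, Old-OSK was at 0.88 (SE 0.426, adjusted p = 0.201), and 0 of 7 fits without 1 library called it. With Old replicate 4 and Old-Control replicate 2 both removed it was called (1.35, adjusted p = 0.0449). That removal was chosen after seeing the data, and it takes out the Old-Control library highest in Cxcl16, so the call is no support for a difference. Within groups, Cxcl16 deviated against the summed RPE markers (r = -0.651 over 18 libraries, a description) and with the summed Mueller glia markers (r = 0.521). Old replicate 4 had the lowest RPE sum of the Old libraries (26500 CPM). The part of composition in the higher Cxcl16 was not tested. Exons of Cxcl16 share 552 bases (18.3%) with Zmynd15 on the opposite strand, and reads there cannot be told apart without strand.

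Cxcl12 (chr6:117168535-117181367, plus strand) encodes a homeostatic chemokine that retains CXCR4-bearing cells and is scavenged by ACKR3. Young libraries had 10.2 to 13.4 CPM (median 11.1), and Old libraries 17.2, 20.4, 22.7 and 17.8 CPM. Old-Control libraries had 25.4, 14.5 and 13.3 CPM, and Old-OSK libraries 13.8, 15.7, 19.6 and 24.1 CPM. Old lay above Young without overlap (log2 fold change 0.76, SE 0.172, adjusted p = 0.0157), and both vector groups spread on either side of the Old range. Without Old replicate 3 the adjusted p was 0.0505 (0.68), with M as a covariate 0.0484 (0.69), and among libraries without M 0.153 (0.68). Old-OSK and Old-Control differed by 0.05 (SE 0.213, adjusted p = 0.923). Endothelium is a known source of Cxcl12. Summed levels of its 9 markers were 83.8 to 309 CPM in Young (median 94) and 102 to 381 CPM in Old (median 186). All 9 had a positive log2 fold change with age (median 0.63), and 0 were called. Within groups, Cxcl12 deviated together with the endothelial sum (r = 0.558 over 18 libraries, a description) and as much with the stroma or pericyte sum (r = 0.568). Of the 9 stroma or pericyte markers, 1 had a positive log2 fold change with age (median -0.667), and 2 were called lower. The part of endothelium or stroma in the higher Cxcl12 was not tested.

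Cxcl10 (chr5:92346638-92348889, minus strand) encodes an interferon-induced chemokine for T and NK cells. Young libraries had 0.225 to 3.79 CPM (median 0.938), Old 0.814, 4.76, 3.72 and 0.717 CPM, Old-Control 1.57, 1.05 and 4.05 CPM, and Old-OSK 5.71, 4.16, 1.9 and 6.33 CPM. Values overlapped between all groups. The log2 fold change was 1.04 (SE 0.673, adjusted p = 0.32) with age and 1.03 (SE 0.843, adjusted p = 0.479) for Old-OSK against Old-Control. Cxcl1 (chr5:90891241-90893115, plus strand) encodes a neutrophil attractant. It was at 0.0321 to 0.463 CPM in Young (median 0.396), at 0.144, 0.993, 2.3 and 0.179 CPM in Old, at 0.933, 0.609 and 0.317 CPM in Old-Control and at 0.726, 0.915, 0.824 and 0.403 CPM in Old-OSK. Of the Old libraries 2 lay within the Young range and 2 above it, and the log2 fold change was 1.41 with age (SE 0.642, adjusted p = 0.158), or 0.32 without Old replicate 3. For Old-OSK against Old-Control it was 0.20 (SE 0.791, adjusted p = 0.909).

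Il33 (chr19:29925114-29960718, plus strand) encodes an alarmin, a cytokine kept in the nucleus and released when cells are damaged. Young libraries had 7.26 to 74 CPM (median 38.6), and Old libraries 42.1, 40, 45.8 and 65 CPM. Old-Control libraries had 15.1, 89.6 and 38.4 CPM, and Old-OSK libraries 74.6, 94.7, 92.3 and 43.9 CPM. The spread within Young and within Old-Control was wide enough that all groups overlapped. The log2 fold change was 0.37 (SE 0.493, adjusted p = 0.659) with age and 0.68 (SE 0.615, adjusted p = 0.532) for Old-OSK against Old-Control, and the latter was 1.48 without Old-Control replicate 2. Il6 (chr5:30013114-30019981, plus strand), a fever and acute-phase cytokine, was near the detection limit. It had 1 count in all 7 Young libraries together, 0, 1, 7 and 0 counts in Old, 0, 2 and 2 in Old-Control and 9, 9, 6 and 1 in Old-OSK. In an exact two-sided permutation test of log2 CPM, Old-OSK exceeded Old-Control by 1.36 (p = 0.114; the smallest p possible with 35 splits is 0.0286) and Old exceeded Young by 0.57 (p = 0.109; smallest possible 0.00303). Old-Control differed from Old by -0.033 (exact permutation p = 0.914).

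**Figure D2:**
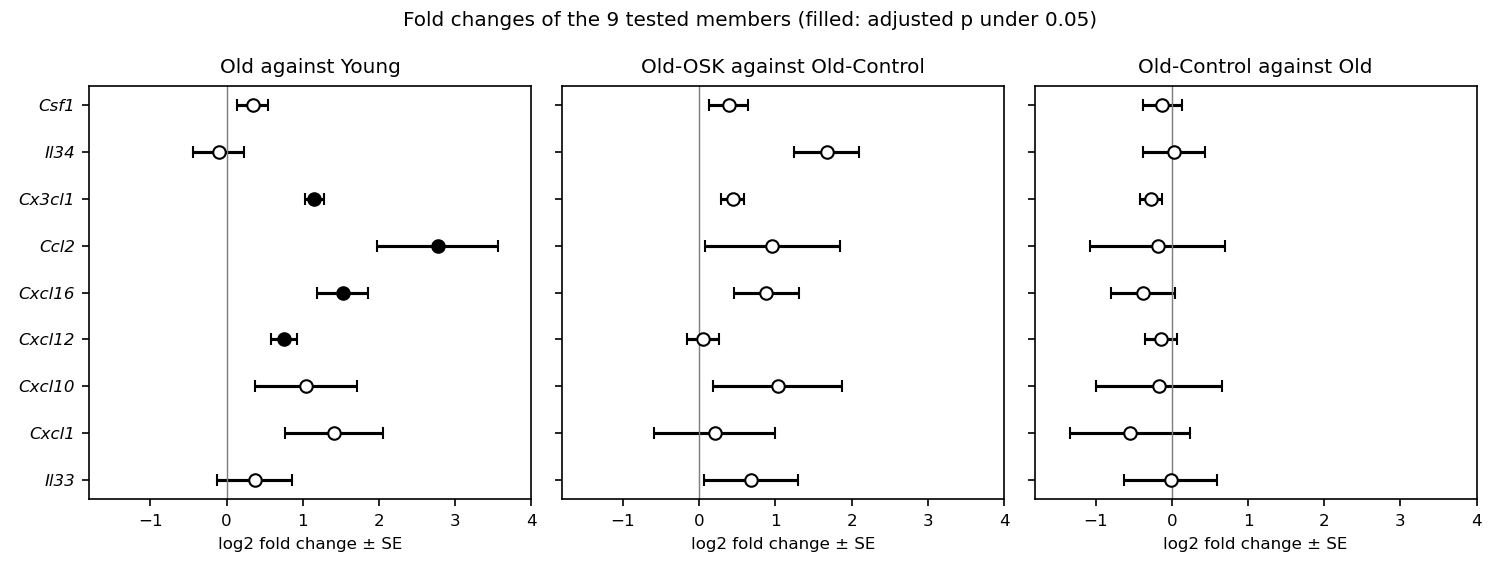
Log2 fold change (x axis) of the 9 tested transcripts (rows) in the 3 comparisons. Bars are the standard error computed from edgeR's log2 fold change and F statistic, and filled points have an adjusted p under 0.05. Filled points appear only for Cx3cl1, Cxcl16, Cxcl12 and Ccl2 in Old against Young.

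Counted together, 4 of the 9 tested members were called higher in Old than in Young and none lower, beside 9.56% of all genes called in either direction and 5.4% called higher. Ccl2, with at most 9 counts in a Young library, passed the filter only through libraries of old mice, where it is higher. Cxcl1, with at most 11 counts in a Young library, also needed libraries of old mice to pass. The part of Ccl2 and Cxcl1 in the counts given here is thus a description and no support for a rise. The median log2 fold change of the 9 was 1.04, against -0.0044 over all genes tested, and 8 were positive beside 49.3% of all genes. Groups did not overlap, with Old higher, for Cx3cl1, Cxcl12 and Ccl2, as for 3.69% of all genes, and for none with Old lower, as for 5.61% of all genes. An unadjusted p under 0.05 was found for 5 members, beside 29% of all genes. With 1 library left out, 2 to 4 members were called, 2 of them without Old replicate 3 (Cxcl16, Cx3cl1) and 2 without Old replicate 4 (Cxcl12, Cx3cl1). Among libraries without M, 1 was called (Cx3cl1).

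Macrophage and neutrophil markers rose beside the chemokines. Of 17 macrophage or microglia markers, 13 were called higher in Old than in Young and none lower (11 to 14 with 1 library left out). Of all genes, 5.4% were called higher. Their summed level was 511 to 693 CPM in Young and 764 to 1240 CPM in Old, and most of the Young sum was Csf1r. Without it, a sum chosen after its values were seen, the other 16 were at 73.1 to 110 CPM in Young, 347 to 788 in Old, 466 to 732 in Old-Control and 622 to 776 in Old-OSK. The 6 neutrophil markers summed to 0.357 to 1.86 CPM in Young and 2.56 to 15.8 CPM in Old, with Ly6g at 0 in both groups. Only 3 of the 6 passed the filter, and all 3 were called higher. Without Old replicate 4, 1 of the 3 was called. At Young levels this low, the filter favours markers that are higher in old mice, so this count is a description. The part of these cells in the higher Cx3cl1, Cxcl16, Cxcl12 and Ccl2 was not tested.

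For Old-OSK against Old-Control, 0 of the 9 members was called, beside 0.728% of all genes called in either direction and 0.408% called higher. An unadjusted p under 0.05 was found for 2 (Il34, Cx3cl1), beside 26.3% of all genes. All 9 log2 fold changes were positive, beside 47.1% of all genes, with a median of 0.68 against -0.028 over all genes. Groups did not overlap, with Old-OSK higher, for Il34 and Cx3cl1, and for 6.55% of all genes, and for none with Old-OSK lower, as for 5.84% of all genes. With the block for pairs, 1 member (Il34) and 461 genes were called. The same libraries without the block also called Il34, with 898 genes called higher and 92 lower. The main fit over all 18 libraries called 116 genes. DESeq2 called 2 members (Il34, Cx3cl1). With Old replicate 4 and Old-Control replicate 2 both removed, a choice made after seeing the data, 2 were called (Il34, Cxcl16). For Old-Control against Old, edgeR and DESeq2 called 0 of the 9 members and 0% of all genes. None of the 9 had an unadjusted p under 0.05, beside 3.74% of all genes. Cx3cl1 alone did not overlap (Old-Control lower, as for 0.928% of genes), 1 value was positive beside 57.4% of all genes, and the median was -0.17.

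**Figure D3:**
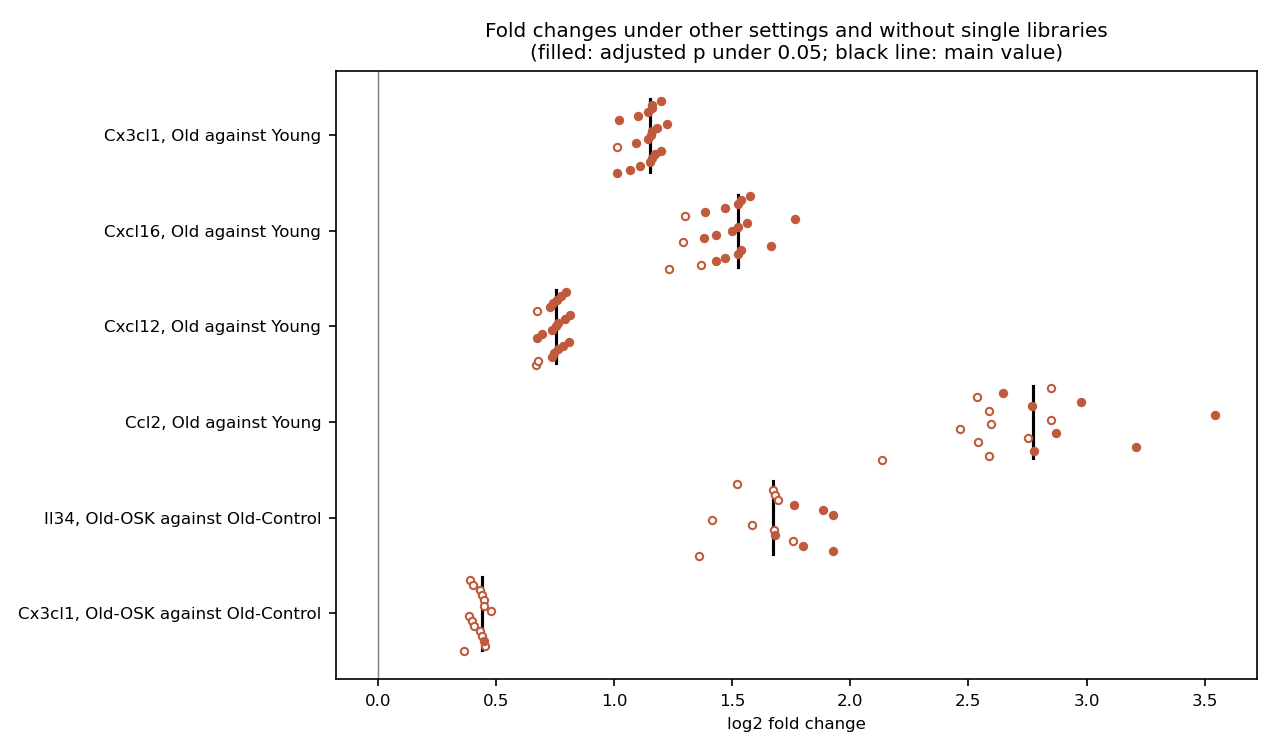
Log2 fold change (x axis) of 5 transcripts under each alternative setting and with single libraries left out, filled where the adjusted p was under 0.05, with the value of the main fit as a black line. Cx3cl1 with age keeps to 1.01 to 1.23 and is filled except with the replicate block, and Il34 after OSK spreads from 1.36 to 1.93 on both sides of the threshold.

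Among 12 tested receptors of the members, 2 rose with age and none fell, beside 5.4% of all genes called higher and 4.16% lower. A count of 2 says little of the list as a whole. Cx3cr1, the fractalkine receptor of microglia, had 2.57 to 5.75 CPM in Young libraries and 6.11 to 10.3 CPM in Old ones, a log2 fold change of 1.17 (SE 0.248, adjusted p = 0.0104). Il6ra, the ligand-binding IL-6 receptor chain, was at 1.13 (SE 0.279, adjusted p = 0.0229). For Old-OSK against Old-Control none of the 12 passed, beside 0.728% of all genes called. The lowest p-values were those of Csf1r (-0.97, SE 0.299, adjusted p = 0.0856) and Il6ra (0.86, SE 0.35, adjusted p = 0.138).

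Csf1r, the receptor of Csf1 and Il34, was the highest of these receptors per kilobase in every group and did not follow macrophage markers. It was at 401 to 620 CPM in Young, at 412, 448, 450 and 254 CPM in Old, at 533, 171 and 459 CPM in Old-Control and at 216, 136, 215 and 227 CPM in Old-OSK. That is 85.5 CPM per kb in Young and 34.4 in Old-OSK, against 0.826 and 2.65 CPM per kb for Cx3cr1. The direction for Csf1r was thus opposite to that of its ligand Il34, with overlap through Old-Control replicate 2. As a description over 18 libraries, the deviations of Csf1r from its group means had a median r of 0.936 with those of 8 RPE markers (-0.0982 to 0.975) and of -0.294 with those of 16 macrophage markers (-0.535 to 0.284). These values share libraries and composition. Exons of Csf1r share 873 bases (15.1%) with Hmgxb3 on the opposite strand.

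**Figure D4:**
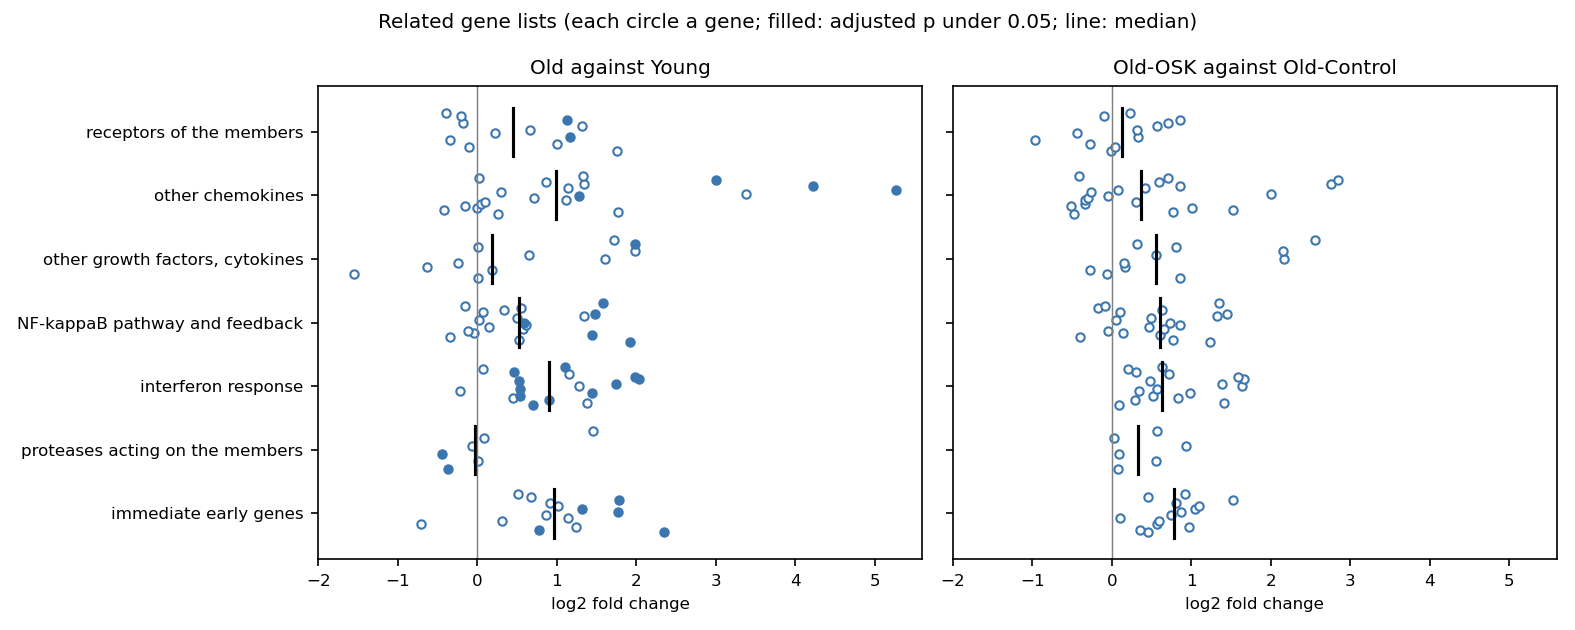
Log2 fold change (x axis) of each gene in 7 related lists (rows) for Old against Young and Old-OSK against Old-Control; each circle is a gene, filled where the adjusted p was under 0.05, and the line is the list's median. Filled circles lie to the right in all lists but the proteases for Old against Young, and the right panel holds none.

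Among other genes of the same pathways, of 20 other chemokines, 4 rose with age and none fell: Cxcl13, a B-cell attractant (5.27, SE 1.03, adjusted p = 0.00617, at most 0.693 CPM in Old), Cxcl17 (4.23, SE 0.912, adjusted p = 0.0116), Ccl6 (1.28, SE 0.331, adjusted p = 0.0281) and Cxcl9, an interferon-gamma target (3.003, SE 0.878, adjusted p = 0.0424). The Cxcl9 value rested on Old replicate 3: Old libraries ran from 0.0958 to 2.55 CPM (median 0.179) and Young reached 0.25 CPM. Without that library it was 0.69 (adjusted p = 0.604), and it was called in 2 of 11 fits without 1 library. The count of called chemokines ran from 1 (without Old replicate 2) to 5 with 1 library left out. Cxcl13, with at most 1 count in a Young library, passed the filter only through libraries of old mice. So did Cxcl17 (at most 0.356 CPM in Young) and Cxcl9 (at most 0.25 CPM). The part of Cxcl13, Cxcl17 and Cxcl9 in the count is thus a description and no support for a rise. Of all genes tested, 5.4% were called higher with age and 4.16% lower. Of 11 other growth factors and cytokines, Lif, an IL-6 family cytokine made by stressed retina, rose (1.99, SE 0.453, adjusted p = 0.0157). With 1 gene called, nothing is read about that list. Of 6 proteases acting on the members, Adam10, a sheddase of CX3CL1 and CXCL16, fell by 0.37 (adjusted p = 0.0146) and Dpp4, which trims CXCL10 and CXCL12, fell by 0.44 (adjusted p = 0.0161). Adam10 was at 131 to 147 CPM in Young and 101 to 114 CPM in Old.

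Genes of the pathways that control chemokine transcription also rose with age, beside 5.4% of all genes called higher. Of 17 interferon response genes 11 rose and none fell, among them Irf7 (1.74), Ifit1 (1.44) and Usp18 (1.11), with adjusted p-values of 0.00491, 0.00527 and 0.00753. Of 19 genes of the NF-kappaB pathway 5 rose and none fell, among them the adhesion molecule Icam1 (1.44, adjusted p = 0.00971), Bcl3 (1.92, adjusted p = 0.0129) and the inhibitor Nfkbia (0.59, adjusted p = 0.0221), beside Zc3h12a and Rel. Of 14 immediate early genes, which also respond to dissection, 5 rose, with Atf3 (2.35), Junb (1.79) and Ier2 (1.31) at adjusted p-values of 0.00695, 0.0194 and 0.0425, beside Fosb and Btg2. With 1 library left out, the interferon count ran from 4 (without Old replicate 2) to 15, the NF-kappaB count from 1 (without Old replicate 4) to 10, and the immediate early count from 1 (without Old replicate 2 or Old replicate 4) to 8. Summed immediate early levels were 88.7 to 390 CPM in Young, 135 to 439 in Old, 149 to 337 in Old-Control and 283 to 490 in Old-OSK, and their part in the members' values was not tested. List medians were 0.99 for other chemokines, 0.91 for interferon, 0.52 for NF-kappaB and 0.97 for immediate early genes, against -0.0044 over all genes. With 1 library left out, Cx3cr1, Cxcl13, Lif, Icam1, Irf7, Ifit1, Usp18, Adam10 and Atf3 were called in all 11 fits. Under the other settings these calls were less firm. Of 9 such fits, Ifit1 was called in 8, Adam10 in 7, and Cx3cr1, Lif, Icam1, Irf7, Usp18 and Atf3 in 6. Cxcl13 was called in 5 of 6, and not among libraries without M (adjusted p = 0.081). The highest adjusted p was without Old replicate 4 for Il6ra (0.0916), Ccl6 (0.0805), Bcl3 (0.0552), Nfkbia (0.117), Junb (0.118), Ier2 (0.253), Zc3h12a (0.143), Rel (0.226), Fosb (0.223) and Btg2 (0.198). It was without Old replicate 2 for Cxcl17 (0.0557) and Dpp4 (0.0542).

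For Old-OSK against Old-Control, 0 genes of these lists were called, beside 0.728% of all genes. Their medians were 0.36, 0.64, 0.60 and 0.78 in the same order, against -0.028 over all genes. Positive values were found for 12 of 20 other chemokines, all 17 interferon genes, 15 of 19 NF-kappaB genes and all 14 immediate early genes. Of all genes, 47.1% were positive. The lowest adjusted p-values were those of Nfkbia (0.73) and the subunit Relb (0.63), both 0.0631, of Ifi35 (0.83, 0.0656), Tnf (2.56, 0.0788) and Irf7 (1.39, 0.0838). Il1a was at 2.16 (adjusted p = 0.0966), Mmp14 at 0.94 (0.0941), Adam17 at 0.56 (0.0966), Junb at 1.53 (0.111), Zfp36 at 0.92 (0.115), Cxcl9 at 2.85 (0.123) and Ccl25 at -0.51 (0.124). For Old-Control against Old no list gene was called (adjusted p at least 0.9), and Tnf had the lowest unadjusted p in these lists, at -2.15. The lowest in the other lists were those of Ackr3 (-0.18) and Cxcr3 (0.74), Cxcl17 (-2.64) and Cxcl9 (-1.71), Nfkbia (-0.38) and Zc3h12a (-1.10), Ifih1 (-0.36) and Irf7 (-0.74), Dpp4 (-0.27) and Adam10 (-0.18), and Zfp36 (-0.73) and Dusp1 (-0.96), with Il11 (0.82) beside Tnf.

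Within groups, Il33 and Il34 followed each other closely. Deviations of log2 CPM from the group means correlated at r = 0.955 over 18 libraries (permutation within groups p = 1e-05, the smallest possible with 100000 draws, adjusted p = 0.00036 over 36 pairs of members; rho = 0.948, p = 1e-05, adjusted p = 0.00036). Without the 2 libraries farthest from the median of Il33, r was 0.935, and it was 0.956 in the 12 libraries without M and 0.961 in the 6 with M. In Young replicate 7 both were at their lowest (7.26 CPM for Il33 and 1.86 CPM for Il34), and in Young replicate 2 both were at the highest of that group (74 and 6.39 CPM). One more pair passed on both measures, Cxcl16 with Il33 (r = 0.736, permutation p = 0.0019, adjusted p = 0.035; rho = 0.736, permutation p = 0.0033, adjusted p = 0.046; r = 0.7 without the 2 farthest libraries). Cxcl16 with Il34 (r = 0.692, adjusted p = 0.056; rho = 0.728, adjusted p = 0.046) and Cxcl10 with Csf1 (r = 0.711, adjusted p = 0.054; rho = 0.725, adjusted p = 0.046) passed this permutation test on rho alone.

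**Figure D5:**
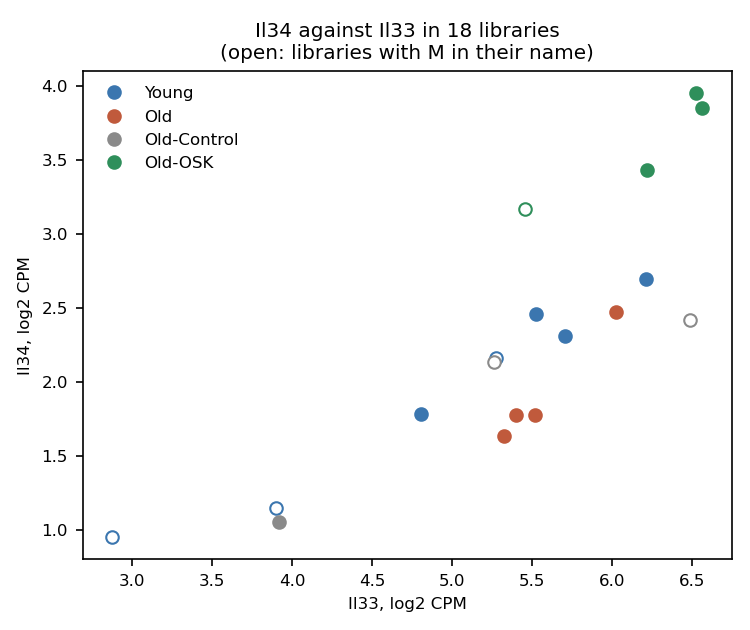
Il34 against Il33 in each library, as log2 CPM, coloured by group and open where the library's name holds M. Libraries with more Il33 tended to have more Il34 within each group (r = 0.955 over all deviations), and Old-OSK libraries lie above the others at the same Il33.

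Some summed marker levels moved with this pair and others against it. As a description over the same 18 libraries, deviations of Il33 and Il34 went with the summed Mueller glia markers (r = 0.88 and 0.879), of which Glul, Slc1a3 and Vim are also known in RPE, and against the summed RPE markers (r = -0.71 and -0.731). With stroma or pericyte markers r was -0.487 and -0.597, and with all 17 macrophage or microglia markers -0.669 and -0.712. With rod markers r was 0.0828 and 0.109, and with the 16 macrophage markers other than Csf1r 0.296 and 0.232. With Csf1r itself r was -0.725 and -0.705. Their part in the result was not tested. Summed Mueller glia markers were 3020 to 5010 CPM in Young, 2840 to 3580 in Old, 2520 to 4140 in Old-Control and 3140 to 3660 in Old-OSK. Ptprz1, a further receptor of IL-34, was among the receptors that went with both (r = 0.868 for Il33 and 0.809 for Il34).

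The genes most like each member, by r of the same deviations among 14032 genes with at least 1 CPM, differed from member to member. For Il33 they were Tnfaip8 (0.981), Bambi (0.975) and Abi3bp (0.973), and for Il34 Atp1b3 (0.968), Pkp4 (0.967) and Ptprk (0.964). For Cxcl16 they were Gpha2 (0.953), Epb41l4a (0.937) and Ntf5 (0.935), and for Cx3cl1 Zbtb16 (0.855), Gcnt2 (0.851) and Stc1 (0.836). Csf1 was most like Zfp235 (0.872), Shc1 and Ulk1 (0.861 each), Cxcl12 most like Zcchc8 (0.844), Mrpl1 (0.838) and Mlh3 (0.795), and Cxcl10 most like Mcam (0.816), Chst14 (0.79) and Shfl (0.78). Spearman's rho for these genes ran from 0.715 to 0.983.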

How the data were processed

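RNA of mouse RPE was reverse transcribed with a full-length low-input kit, fragmented by transposase and amplified without molecular identifiers, per the labels' protocols. Raw counts per gene are what the authors deposited, made with STAR 2.7.1a and featureCounts 1.6.2, per the submitters' processing notes, which name GRCm38/mm10 and GRCh38/hg38. The annotation and strand setting are not given in the sources used here. Groups came from the sample titles. The members and lists were chosen with earlier results of these data known.

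Counts were filtered with filterByExpr (minimum count 10, minimum total 15), scaled by TMM and fitted with edgeR 4.0.16 (R 4.3.3) over 18 libraries and 4 group means. Log2 CPM used a prior count of 2. Each SE is the absolute log2 fold change divided by the square root of edgeR's F statistic. Il6 was tested by exact permutation. Replicates differed beyond counting noise (chi-square per gene at least 21.2, r 0.928 to 0.983). The fit was tested on simulated data. Same-numbered Old-OSK and Old-Control libraries deviated together (r = 0.103, 0.421 and 0.339), and were paired from this check alone, since the labels do not say what a number shares. Not every library went best with its own number: Old-OSK replicate 1 had r = 0.392 with Old-Control replicate 3. The unpaired Old-OSK replicate 4 had r = 0.185 with Old-Control replicate 2. Alternatives were DESeq2 1.42.0, its size factors, no filter, the 2 groups alone, M as a covariate, libraries without M, the replicate block and each library left out. Named genes were all members, from each pathway list up to 3 called genes per direction with the lowest p or else 2 that did not pass, and the 3 genes most like each member. Where a list had at most 5 called genes the rest were named too (Cxcl9, Zc3h12a, Rel, Fosb, Btg2), after their values were seen. Positions are from GENCODE M21 (GRCm38).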

Additional observations from a re-analysis of the deposited data

Results flagged for a closer look

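In 4 of 30 groups of values (a member in Young, Old or Old-OSK), 1 library stood apart from the rest by Dixon's test, which chance alone does in about 1 of 20 groups. Cxcl1 was at 0.0321 CPM in Young replicate 2, with the next at 0.326 CPM. In the same library Cxcl10 was at 3.79 CPM, with the next at 1.13 CPM. Il34 was at 5.47 CPM in Old replicate 4, with the next at 3.35 CPM, and that library also lay among the Old-OSK libraries on the first principal component. Il6 was at 0.0408 CPM in Young replicate 3, which is 1 count, with 0 in the other 6.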

How the results depend on the processing

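Members called for Old against Young (4) became 0 with the replicate block, 2 in the libraries of the paired fit without the block, 1 among libraries without M and 2 to 4 with 1 library left out. All genes called (1524) became 2452 with DESeq2, 600 with M as a covariate, 0 with the replicate block, 191 in the libraries of the paired fit without the block, 236 among libraries without M, 622 with Old replicate 4 and Old-Control replicate 2 both removed (chosen after seeing the data) and 393 to 2140 with 1 library left out. Same-numbered Old and Young libraries did not deviate together (r from -0.193 to 0.144), nor did all of Old-Control and Old (-0.189 to 0.359). Libraries of different numbers reached 0.414 (Old-Control replicate 2 with Old replicate 4). So few correlations cannot show whether a number is shared in 1 comparison and not in another. For Old-OSK against Old-Control, members called (0) became 2 with DESeq2, 1 with the replicate block, 1 in the libraries of the paired fit without the block, 2 with both libraries removed and 0 to 1 with 1 left out. Genes called (116) became 1640 with DESeq2, 2 with the 2 groups alone, 58 with M, 461 with the block, 990 in its libraries without the block, 3729 with both removed, and 13 (without Old-Control replicate 1) to 2881 (without Old-Control replicate 2) with 1 left out. In the same libraries, adding the block changed no call of a member in this comparison. The higher share of these calls, 56%, was 68.8% with DESeq2's size factors, 73.2% without the filter, 82.6% with the block and 92.3% without Old-Control replicate 1. It was 35% without Old-Control replicate 2 and 40% with both libraries removed. For Old-Control against Old every fit called 0 members and 0 genes.

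Directions turned only among values that were not called. For Old against Young, Il33 was -0.0014 with the block, -0.053 in its libraries without the block and -0.042 without M, and Il34 ran from -0.33 to 0.044 with 1 library left out. For Old-OSK against Old-Control, Cxcl12 was -0.067 with the block, -0.12 in its libraries without it, -0.10 with both libraries removed and -0.15 to 0.40 with 1 left out, and Cxcl1 ran from -0.11 to 0.61. For Old-Control against Old with M as a covariate, Ccl2 was 0.43, Cxcl10 0.27 and Il33 0.63. Il33 was 0.15 in the paired fit's libraries without the block, and Il34 was -0.0019 without the filter and -0.043 with both libraries removed. With 1 library left out, the ranges were -0.66 to 0.25 (Ccl2), -0.96 to 0.53 (Cxcl1), -0.93 to 0.33 (Cxcl10), -0.49 to 0.028 (Cxcl12), -0.84 to 0.41 (Il33), -0.26 to 0.33 (Il34), -0.33 to 0.10 (Csf1), -2.15 to 0.60 (Cxcl9) and, for the difference in mean log2 CPM, -0.252 to 0.382 (Il6). The causes were not tested.

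Depth limits Ccl2, Cxcl1 and Il6, where 3 counts in a library are worth 0.0897 to 0.174 CPM. Such floors cover counting error only.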
